A study of Homo sapiens with 3 samples.

Results

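The transcripts described here encode subunits of nicotinic acetylcholine receptors: CHRNA3, CHRNA5, CHRNB4, CHRNB2, CHRNA4, CHRNA7, CHRNA9, CHRNA2, CHRNB1 and CHRNE. These 10 genes were chosen by name, out of 60609 genes in each deposited table. Reads were counted for 7 of them in at least 1 library, 5 had a mean of 5 CPM or more, and 3 had no read at all. CPM are counts scaled to a common library size by TMM, which corrects library totals for composition. The libraries came from NCI-H209, an established small cell lung cancer line with neuroendocrine features, carrying a lentiviral hairpin under doxycycline control (1 µg/mL, renewed every 2 days, in every group). The library sh490 carried a first hairpin against the Src-family kinase YES1, sh1362 carried a second one, and shGFP carried a control hairpin against a gene that human cells lack. There was 1 library of each, so a difference between single libraries has no replicate check, and each hairpin line is known from 1 library only. The labels do not say whether the libraries came from separate cultures.

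Nicotinic receptors are ligand-gated cation channels built from 5 subunits around a pore, and acetylcholine opens them. Alpha subunits carry most of the agonist site, and beta subunits complete it. In neurons, alpha4 pairs with beta2, alpha3 pairs with beta4 or beta2, often with alpha5 as an added subunit, and alpha7 forms channels alone. The alpha9 subunit works with alpha10 in the inner ear, and alpha1, beta1 and delta, with epsilon or the fetal gamma subunit, form the receptor of the muscle endplate. CHRNA5, CHRNA3 and CHRNB4 lie side by side on chromosome 15, in a region associated with smoking behaviour and lung cancer risk, and small cell lung cancer lines are known to express them.

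Total counts were 7791747 in sh490, 7421552 in sh1362 and 4899006 in shGFP. YES1, the targeted gene, had 163, 216 and 1465 counts in these libraries in that order, so the labels and the target matched. All 11 listed neuroendocrine markers were detected, UCHL1, DDC and INSM1 among them, and 0 of them passed the edgeR test used below. At an unadjusted p under 0.05 that test gave 3 of the 11, against 684 of all 15708 genes tested. INSM1 and UCHL1 were higher with the hairpins, and ENO2 was lower. Markers of other cells were low except in shGFP: red cell markers summed to 20.2, 24.4 and 737.8 CPM, most of it in shGFP from HBB (7 of 11 markers detected), and leukocyte markers (8 of 12 detected) to 2.40, 3.79 and 10.3 CPM. In the latter list CD3E, CD3D and CD2 had no read, while the myeloid markers S100A9 (1, 0 and 20 counts), S100A8 (0, 0 and 5) and CSF3R (2, 2 and 8) were highest in shGFP. Other myeloid markers were not: by CPM, CD14 (14, 10 and 6 counts) was highest in sh490 and LYZ (1, 9 and 3) in sh1362. Skeletal muscle markers, listed because CHRNB1 and CHRNE are muscle receptor genes, summed to 1.26, 1.76 and 1.24 CPM, with MYOD1, MYOG and CKM at 0 in all 3 libraries. The part that blood transcripts in shGFP play in the values below was not tested; the comparison of sh490 with sh1362 does not use shGFP. In bulk RNA, fewer cells of a kind and less RNA per cell cannot be told apart.

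The subunit transcripts fell into 3 tiers by level per length. Levels of different genes are compared in TPM, which are counts per exon length scaled to a common total, computed from the counts and the exon length in the tables. CHRNB1, the beta subunit of the muscle receptor, was at 31.3 TPM in sh490, 18.7 in sh1362 and 30.9 in shGFP. CHRNB2, the common neuronal beta subunit, was at 20.0, 28.5 and 21.8 TPM. These highest levels overlapped over the libraries, so their order could not be told: CHRNB1 was the higher in sh490 and shGFP, and CHRNB2 in sh1362.

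CHRNA3, the alpha3 subunit of autonomic ganglia, CHRNA9 and CHRNA5 formed the middle tier. CHRNA3 was at 6.60, 12.9 and 12.3 TPM in sh490, sh1362 and shGFP. CHRNA9 was at 13.5, 2.14 and 12.4 TPM. CHRNA5, the accessory alpha5 subunit, was at 5.01, 4.53 and 9.5 TPM. Ranges of the 3 overlapped, and every value lay below every value of CHRNB1 and CHRNB2.

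CHRNE and CHRNB4 were close to the limit of detection. CHRNE, the adult epsilon subunit of muscle, had 6, 5 and 7 counts, and CHRNB4, the beta4 partner of alpha3, had 8, 7 and 2. Their mean levels were 1.03 ± 0.46 TPM and 0.59 ± 0.25 TPM (SD, n = 3 libraries). Of CHRNE's 3521 counted exon bases, 59.6% are also exons of C17orf107, GP1BA or MINK1 on the other strand, where a read would have been left out of the count. Set on the remaining bases alone, CHRNE was at 2.42 TPM.

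**Figure D1:**
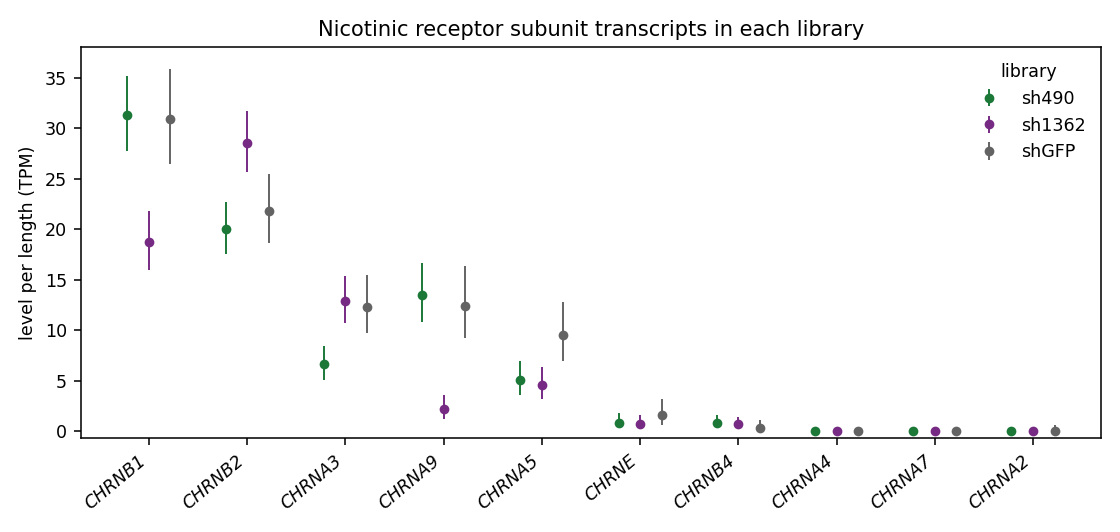
Level of each subunit transcript in TPM (linear axis) in the libraries sh490, sh1362 and shGFP, with exact 95% Poisson intervals of the counts as bars. CHRNB1 and CHRNB2 lie between 18.7 and 31.3 TPM, CHRNA3, CHRNA9 and CHRNA5 between 2.14 and 13.5, and the other 5 genes at 1.56 or less.

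No read was counted for CHRNA4, CHRNA7 or CHRNA2 in any library. A count of 0 allows up to 3 counts, equal to 0.385 CPM in sh490, 0.404 in sh1362 and 0.612 in shGFP. CHRNA4 encodes the alpha4 subunit, the usual partner of beta2 in brain, and CHRNA7 the homomeric alpha7 subunit. For CHRNA7 the 0 says little, because 84.7% of the words of 50 bases in its longest coding transcript (GENCODE version 29) also occur in transcripts of other genes, mainly the fused copy CHRFAM7A, which also had 0 counts. Reads that align to several places were left out of these tables. The same share was 1.17% for CHRNA2, 0.840% for CHRNA4, 8.61% for CHRNB1 and 0.672% for CHRNA5, and 0 for the other 5 members.

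Partner subunits were measured beside them. CHRNA1, the muscle alpha1 subunit, was counted 59 times in sh490, 77 in sh1362 and 46 in shGFP, a mean of 6.84 ± 0.89 TPM (SD, n = 3 libraries), close to the level of CHRNA5. CHRND and CHRNG, which encode the delta and gamma subunits of muscle, each had 1 count in sh490 and 0 elsewhere. CHRNA10, the partner of alpha9, had 4, 4 and 0 counts. CHRNA6 and CHRNB3 had none. The alpha subunit with the highest level in a library was therefore CHRNA9 in sh490 and CHRNA3 in sh1362. In shGFP the highest could not be told. There the counting intervals of CHRNA3 (9.69 to 15.4 TPM), CHRNA9 (9.17 to 16.3) and CHRNA5 (6.90 to 12.8) overlapped.

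In sum, the members took 90.5 CPM in sh490, 95.2 in sh1362 and 106.0 in shGFP. Their summed TPM were 78.0, 68.2 and 88.7, so shGFP was highest in both units, and the order of the hairpins depended on the unit. CHRNB2 made up 25.7%, 41.9% and 24.6% of their summed TPM, and CHRNB1 made up 40.1%, 27.5% and 34.8%. CHRNA9 made up 17.3%, 3.13% and 13.9%. In sh1362 CHRNB2 took a larger share and CHRNB1 and CHRNA9 smaller ones than in the other two libraries.

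The genes of the chromosome 15 cluster are packed closely. In the GENCODE version 32 models used for counting (GRCh38), CHRNA5 runs from 78565520 to 78595269 on the plus strand, CHRNA3 from 78593052 to 78621295 on the minus strand and CHRNB4 from 78624111 to 78727754 on the minus strand. CHRNA5 and CHRNA3 point at each other, and their spans overlap by 2218 bases at the 3' ends. Their exons share 198 bases, and CHRNA5 shares 832 more with an antisense transcript, ENSG00000261762, so that 28.4% of the exon bases of CHRNA5 could hold no counted read, against 4.16% for CHRNA3. On unshared bases CHRNA5 had a mean of 8.43 TPM, against 6.35 on its full length. CHRNA7 is on the same chromosome but 46392501 bases away.

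**Figure D2:**
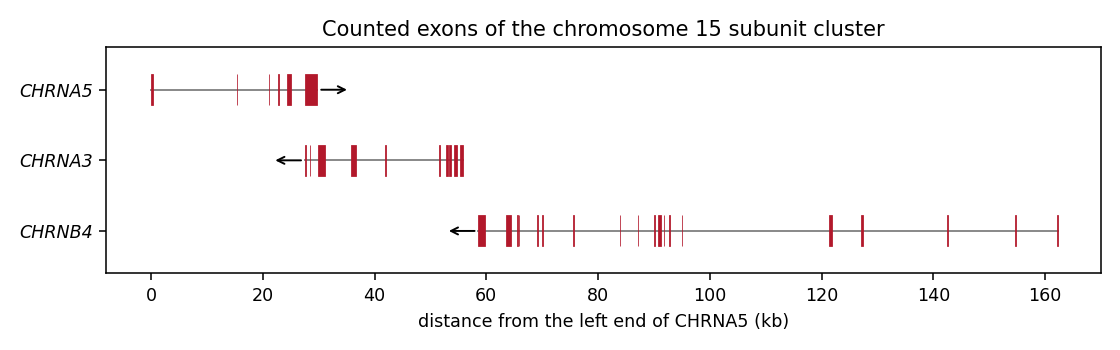
Counted exons (boxes) of CHRNA5, CHRNA3 and CHRNB4, placed by distance in kb from the left end of CHRNA5 and drawn to scale, with arrows for the direction of transcription. CHRNA5 meets CHRNA3 at their 3' ends, where 198 exon bases are shared, and the model of CHRNB4 reaches far to the right.

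RefSeq promoter windows (GRCh38.p14, 250 bases before to 50 after a gene's RefSeq start) were found for 7 of the 10 members. For CHRNA3, CHRNB4, CHRNA7 and CHRNE the window lies inside the gene model used for counting. The counted models of CHRNB4, CHRNA7 and CHRNE begin far upstream of it, at 78727754, 31923438 and 4934438. CHRNA5, CHRNA4 and CHRNA2 had no entry. They were searched on both strands for the GC box GGGCGG, which SP1 and SP3 recognise, and for the E-boxes CAGCTG and CAGGTG, which basic helix-loop-helix factors can bind. Of 35116 windows in the table, 45.0% held the GC box, 17.9% CAGCTG and 20.6% CAGGTG. A match is a run of letters and not a measured site, and the tables hold no binding data. Windows of 5 members are printed 5' to 3' on the gene's own strand, for the cluster genes CHRNA3 and CHRNB4, for CHRNB2, one of the members with the highest level, for CHRNA9, which differed most between the hairpins, and for CHRNA7, which had no read. Capitals mark the motifs, which may overlap each other.
CHRNA3 (chr15:78620947-78621246, minus strand): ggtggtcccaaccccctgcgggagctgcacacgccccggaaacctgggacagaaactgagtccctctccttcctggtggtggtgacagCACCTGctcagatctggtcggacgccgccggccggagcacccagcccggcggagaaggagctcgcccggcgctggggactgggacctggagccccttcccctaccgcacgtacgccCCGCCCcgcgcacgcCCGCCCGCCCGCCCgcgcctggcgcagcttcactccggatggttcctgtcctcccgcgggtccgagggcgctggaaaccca
CHRNB4 (chr15:78641161-78641460, minus strand): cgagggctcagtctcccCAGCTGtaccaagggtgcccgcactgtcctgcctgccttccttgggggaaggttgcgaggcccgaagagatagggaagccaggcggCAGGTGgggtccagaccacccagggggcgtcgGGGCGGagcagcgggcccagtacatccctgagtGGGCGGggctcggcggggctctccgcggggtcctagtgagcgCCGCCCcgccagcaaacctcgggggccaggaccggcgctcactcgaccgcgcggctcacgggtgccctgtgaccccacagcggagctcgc
CHRNB2 (chr1:154567528-154567827, plus strand): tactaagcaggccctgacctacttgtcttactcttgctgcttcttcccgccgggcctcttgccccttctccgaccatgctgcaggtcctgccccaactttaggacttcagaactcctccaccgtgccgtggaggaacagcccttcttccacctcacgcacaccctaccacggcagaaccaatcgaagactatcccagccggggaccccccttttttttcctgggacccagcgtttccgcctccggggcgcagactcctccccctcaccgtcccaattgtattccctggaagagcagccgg
CHRNA9 (chr4:40335083-40335382, plus strand): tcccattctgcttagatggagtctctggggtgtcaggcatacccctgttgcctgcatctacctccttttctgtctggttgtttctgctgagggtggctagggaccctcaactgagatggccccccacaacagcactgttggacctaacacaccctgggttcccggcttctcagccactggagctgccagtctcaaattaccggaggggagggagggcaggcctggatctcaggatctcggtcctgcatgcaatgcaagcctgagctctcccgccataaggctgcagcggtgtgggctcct
CHRNA7 (chr15:32030233-32030532, plus strand): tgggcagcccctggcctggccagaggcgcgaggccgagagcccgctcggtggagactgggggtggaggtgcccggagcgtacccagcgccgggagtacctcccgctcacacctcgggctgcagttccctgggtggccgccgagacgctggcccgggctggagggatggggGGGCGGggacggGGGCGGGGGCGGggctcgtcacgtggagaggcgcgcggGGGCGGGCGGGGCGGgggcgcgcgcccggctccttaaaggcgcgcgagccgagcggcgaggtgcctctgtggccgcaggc

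Both cluster genes with an entry held GC boxes and an E-box. CHRNA3 had 4 GC boxes, counted with overlaps as in every window, from 46 to 23 bases before the start, and 1 CAGGTG at 162 bases before it. CHRNB4 had 3 GC boxes, 1 CAGCTG and 1 CAGGTG. The windows of CHRNA3 and CHRNB4 each had 72.7% G and C, above the median of 58.7% over all windows. CHRNB2 held none of the motifs, and neither did CHRNA9. CHRNA7, with no counted read, held 6 GC boxes in the first of its 2 windows, which had 79.0% G and C with 38 CG pairs, against medians of 58.7% and 14 over all windows. CHRNB1 held 2 GC boxes and 1 CAGGTG, and CHRNE 1 GC box, 2 CAGCTG and 1 CAGGTG.

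The first comparison set both YES1 hairpins against shGFP. No member passed the test. Of the 10 members 6 were tested, CHRNA3, CHRNA5, CHRNB2, CHRNA9, CHRNB1 and CHRNE, and 0 passed in either direction by edgeR's quasi-likelihood test at a Benjamini-Hochberg adjusted p under 0.05; all 6 had an adjusted p of 0.986. Over all genes tested, 4 of 15708 passed, 0.0255%. They were the targeted YES1 and 3 red cell markers, HBB, HBA1 and HBA2, all lower than in shGFP. At an unadjusted p under 0.05 the members also gave 0, against 684 of all genes, and DESeq2 and limma-voom called 0 members. The spread rests on 1 residual degree of freedom shared across genes, with shGFP assumed to vary as the hairpins do.

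Among members with 5 CPM or more, CHRNA5 lay farthest from shGFP in the same direction with both hairpins. It was counted 37 times in sh490, 34 in sh1362 and 44 in shGFP, or 4.67, 4.60 and 9.10 CPM. Both hairpin libraries were low and nearly equal, and shGFP was high. The sh490 level was 51.3% of the shGFP level, with an exact counting interval at 95% of 32.2 to 81.3, and the sh1362 level was 50.6% of it (31.4 to 81.0). The edgeR log2 fold was -0.97 (standard error 0.51, unadjusted p 0.0906, adjusted p 0.986). CHRNA5 was lower in 2 of 2 hairpin libraries, as were 5346 of the 15708 genes tested. Both ratios use the same shGFP library, and CHRNA5 was singled out after its values were seen. With a prior count of 2, the log2 ratios were -0.92 and -0.94, just short of a 2-fold difference. Whether the dropped reads over its shared exons differ between the libraries was not tested.

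CHRNA3, its neighbour, was lower than shGFP with sh490 and near it with sh1362. It was counted 64 times in sh490, 127 in sh1362 and 75 in shGFP, or 8.07, 17.2 and 15.5 CPM. The library sh490 was the low one, and sh1362 and shGFP were close. The level was 52.1% of shGFP with sh490 (36.7 to 73.7) and 110.9% with sh1362 (82.7 to 149.6). Both hairpins together had an edgeR log2 fold of -0.30 with a standard error of 0.52 (adjusted p 0.986).

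The balance of the neighbours therefore differed between libraries. In TPM on full exon length, CHRNA3 was 1.32 times CHRNA5 in sh490, 2.84 times in sh1362 and 1.30 times in shGFP. These ratios depend on the length used, because 28.4% of CHRNA5's exon bases could hold no counted read, against 4.16% for CHRNA3. On unshared bases the mean was 10.5 TPM for CHRNA3 and 8.43 for CHRNA5, against 10.6 and 6.35 on full length, so the lead of CHRNA3 was smaller there. The ratio of their counts in sh1362 was 2.19 times that in shGFP (conditional exact 95% interval 1.25 to 3.86), whereas sh490 and shGFP differed by 1.01 times (0.565 to 1.83). These intervals cover counting error only, and the pair was chosen after the values were seen.

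CHRNB4 had 1.01 CPM in sh490, 0.948 in sh1362 and 0.413 in shGFP. Its ratios to shGFP were 2.44 (0.487 to 23.6) and 2.29 (0.436 to 22.6), so a difference was not detectable at this depth. The gene did not reach the count needed for the test; without a filter on low counts its edgeR log2 fold was 1.23 (standard error 1.48, adjusted p 0.916).

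CHRNB2 was near shGFP with sh490 and somewhat above it with sh1362. It was counted 240 times in sh490, 348 in sh1362 and 164 in shGFP, or 30.3, 47.1 and 33.9 CPM. The library sh1362 was the high one. The level was 89.3% of shGFP with sh490 (72.9 to 109.6) and 139.0% with sh1362 (115.1 to 168.4). The edgeR log2 fold over both was 0.19 (standard error 0.37, adjusted p 0.986).

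CHRNB1 was the reverse. It had 276, 168 and 171 counts in sh490, sh1362 and shGFP, or 34.8, 22.7 and 35.3 CPM. The library sh1362 was the low one, and sh490 and shGFP were nearly equal. The level was 98.5% of shGFP with sh490 (81.1 to 119.9) and 64.4% with sh1362 (51.7 to 80.1), and the edgeR log2 fold over both was -0.30 (standard error 0.36, adjusted p 0.986).

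CHRNE entered the test only through its level in shGFP, 1.45 CPM against 0.757 and 0.677 with the hairpins. Its ratios to shGFP were 0.523 (0.145 to 1.82) and 0.468 (0.117 to 1.71), and both intervals span 1.

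Set against shGFP by size alone, sh490 had 0 of the 5 members with a mean of 5 CPM or more at least 2-fold apart, where 2.81% of 11634 genes were. With sh1362 it was 1 of 5, CHRNA9, where 9.28% of all genes were. CHRNA9 was known to differ between the hairpins when the members were chosen, so this count is not independent of that choice. Median log2 ratios of these 5 members were -0.16 with sh490 and -0.63 with sh1362, beside 0.00 and -0.01 over all genes. Both comparisons use the same shGFP library. With so few members the counts are a description only.

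**Figure D3:**
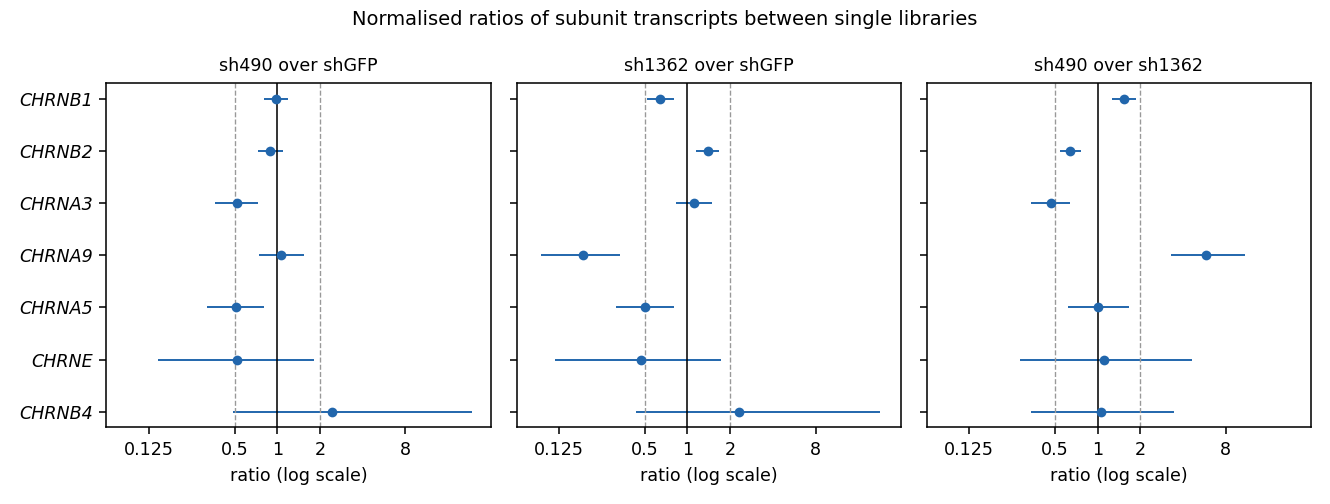
Ratio of normalised counts (log axis) for the 7 detected subunits in sh490 over shGFP, sh1362 over shGFP and sh490 over sh1362, with exact 95% counting intervals as bars and dashed lines at 2-fold. CHRNA5 lies near 0.5 in both comparisons with shGFP, and CHRNA9 at 0.183 in sh1362 over shGFP and at 5.79 between the hairpins.

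A direct comparison of sh490 with sh1362 followed, as the same kinase is targeted by both. Here 2 of the 5 members were at least 2-fold apart, CHRNA9 and CHRNA3, in opposite directions, where 5.90% of all genes were. That CHRNA9 differs was known when the members were chosen, so its values are a description.

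CHRNA9 was counted 87 times in sh490, 14 in sh1362 and 50 in shGFP, or 11.0, 1.90 and 10.3 CPM. The library sh1362 was low, and sh490 and shGFP were close. Against shGFP the level was 106.1% with sh490 (74.1 to 153.5) and 18.3% with sh1362 (9.36 to 33.7). The ratio of sh490 to sh1362 was 5.79 (3.27 to 11.0). The edgeR log2 fold over both had the widest error of the members with 5 CPM or more, -0.68 with a standard error of 0.87 (adjusted p 0.986). The gene (chromosome 4, 40335333 to 40355217, plus strand) shares no exon base with another gene of the tables and no 50-base word with another gene's transcripts.

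CHRNA3 and CHRNB2 were higher in sh1362 than in sh490. The ratio of sh490 to sh1362 was 0.469 (0.342 to 0.639) for CHRNA3 and 0.642 (0.543 to 0.759) for CHRNB2. For CHRNB1 it was 1.53 (1.26 to 1.86). CHRNA5 was at 1.01 (0.619 to 1.66), CHRNB4 at 1.06 (0.337 to 3.45) and CHRNE at 1.12 (0.284 to 4.63). Counting intervals leave out every other source of spread between libraries, and no test of these differences was made with 1 library each.

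Against CHRNB2, CHRNA9 counts per count were 8.98 times higher in sh490 than in sh1362 (4.93 to 17.5), and against CHRNA3 they were 12.2 times higher (6.31 to 25.2). The count of CHRNB2 per count of CHRNB1 in sh1362 was 2.16 times that in shGFP (1.61 to 2.89). In sh490 it was 0.907 times that in shGFP (0.682 to 1.21). Between the hairpins it was 0.420 times as high in sh490 as in sh1362 (0.323 to 0.545). These pairs were also chosen after the values were seen. The ratios with CHRNA9 restate its known difference between the hairpins, and the one with CHRNA3 adds a gene that was lower in sh490.

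Genes that work with the subunits were described from lists. Among 14 genes for receptor assembly and accessory proteins, 6 were tested and 0 passed the edgeR test in either direction. RER1, which retains unassembled muscle subunits early in the secretory pathway, was counted 560 times in sh490, 498 in sh1362 and 323 in shGFP. RIC3, a chaperone of alpha7 and other nicotinic receptors, had 309, 324 and 221, log2 ratios to shGFP of -0.23 and -0.06. UBXN2A, which affects the turnover of alpha3 receptors, had 282, 215 and 98, log2 ratios of 0.80 and 0.52. UBXN2A had the largest ratios of these and did not pass (edgeR adjusted p 0.986). It was higher in 2 of 2 hairpin libraries, as were 5404 of the 15708 genes tested.

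LYPD6B and LYPD6 encode surface proteins of the Ly6 family that bind nicotinic receptors. LYPD6B had 70, 34 and 34 counts in sh490, sh1362 and shGFP. LYPD6, named here after its values were seen, had 66, 15 and 29, and its log2 ratio of sh490 to sh1362 was 1.89. As for CHRNA9, sh1362 was the lowest library in CPM for both. TMEM35A, the alpha7 chaperone NACHO, had no read. Also at 0 in all 3 libraries were the Ly6 genes LYNX1, LY6H, LY6E, PSCA, SLURP1 and SLURP2, so 7 of the 14 had no read.

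RNA for acetylcholine synthesis was at or near the limit of detection. Of 7 genes for synthesis, transport and breakdown, CHAT, the synthesising enzyme, and SLC5A7, the choline transporter, had no read, and SLC18A3, the vesicular transporter, had 2, 0 and 0. ACHE, acetylcholinesterase, had 1, 1 and 0 counts. BCHE, butyrylcholinesterase, was by far the highest of them with 355, 372 and 210 counts and a mean of 56.2 TPM, and was the only one tested (edgeR adjusted p 0.991). COLQ, a collagen tail of the esterases, had 1, 5 and 4 counts.

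Other acetylcholine receptors were present as well. Among 5 muscarinic receptor genes, which encode G protein-coupled receptors, CHRM3 had 209, 209 and 116 counts and CHRM4 had 16, 31 and 8. Log2 ratios to shGFP were 0.13 with sh490 and 0.24 with sh1362 for CHRM3, and 0.25 and 1.20 for CHRM4. Counting intervals of the ratios spanned 1 for CHRM3 with both hairpins (0.872 to 1.39 and 0.936 to 1.49). For CHRM4 the interval spanned 1 with sh490 (0.493 to 3.29) and lay above it with sh1362 (1.14 to 6.39). Neither gene passed the edgeR test (adjusted p 0.986). CHRM2 and CHRM5 had 2 counts or fewer in each library. Of 6 other cation channels of the same family, ZACN, a zinc-activated channel, had 177, 238 and 84 counts, but 61.6% of its exon bases are shared with EXOC7 on the other strand. HTR3A, a serotonin receptor subunit, had 4, 8 and 1.

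Muscle endplate scaffold genes were low. LRP4, a receptor for agrin, had 92, 28 and 41 counts, AGRN, which encodes agrin, had 102, 53 and 36, and MUSK, the endplate kinase, had 13, 22 and 7. DOK7, its adaptor, had 6, 13 and 0, and RAPSN, which clusters the muscle receptor, had none. Of these 5 genes 4 were tested and 0 passed the edgeR test.

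The 4 tested neighbours of the cluster had log2 ratios to shGFP between -0.62 and 0.32. IREB2, an iron regulatory protein, was at -0.03 with sh490 and 0.25 with sh1362. PSMA4, a proteasome subunit, had 0.26 and 0.32, HYKK, a hydroxylysine kinase, -0.03 and -0.62, and MORF4L1, a chromatin protein, -0.59 and -0.36. ADAMTS7 had 0, 0 and 2 counts. Of 5 neighbours 4 were tested and 0 passed the edgeR test; whether they differ from CHRNA5 was not tested.

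Factors known to act on promoters of subunit genes were listed as well. SP1 had log2 ratios to shGFP of -0.51 and -0.47, and SP3 -0.14 and -0.17. REST, a repressor of neuronal genes, was counted 183 times in sh490, 72 in sh1362 and 100 in shGFP, log2 ratios of 0.16 and -1.06. REST was lowest in sh1362, where CHRNB2 had its highest CPM and CHRNA9 and CHRNB1 their lowest. CHRNA3 was close between sh1362 and shGFP. For CHRNA5, CHRNE and CHRNB4 the counting interval of the ratio of sh490 to sh1362 spanned 1. The part of REST in these values was not tested. PHOX2A had 1 count in all, and SOX10 had 0. Of 8 factors 5 were tested and 0 passed the edgeR test.

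Of the 11 neuroendocrine markers, all but ENO2 and GRP had their highest CPM in sh1362. DDC, an enzyme of amine synthesis, had log2 ratios of 0.06 with sh490 and 1.04 with sh1362, and INSM1, a neuroendocrine transcription factor, 0.86 and 1.75. UCHL1, a neuronal deubiquitinase, had 0.65 and 0.71. ENO2, the neuronal enolase, went the other way with -0.52 and -1.28, and GRP, which encodes gastrin-releasing peptide, had 0.17 and -0.34; both were lowest in sh1362 and were named after their values were seen. Over the 11 markers the median log2 ratio was -0.11 with sh490 and 0.71 with sh1362, beside 0.00 and 0.00 over all genes tested. Their part in the values of the subunits was not tested.

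**Figure D4:**
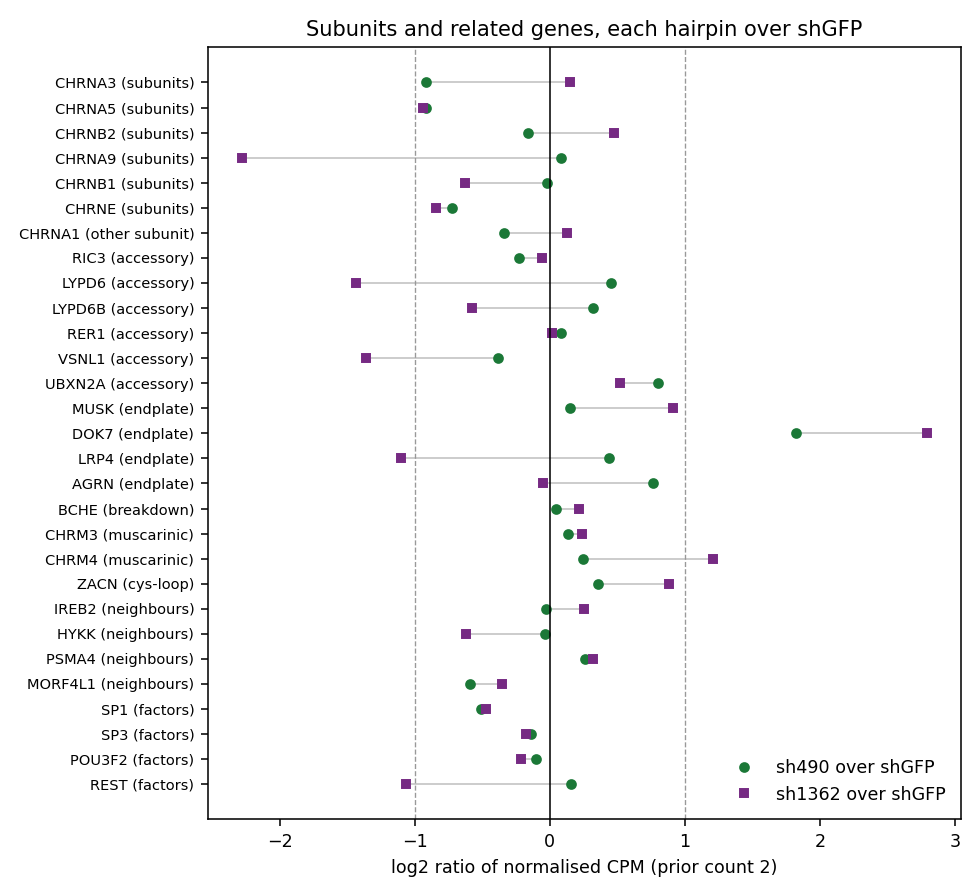
Log2 ratio of normalised CPM (prior count 2) to shGFP for the tested subunits and for tested genes of the related lists, circles for sh490 and squares for sh1362, with dashed lines at 2-fold. CHRNA9 lies at 0.08 and -2.28, CHRNA5 at -0.92 and -0.94, and DOK7, which had no read in shGFP, has values set by the prior count.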

How the data were processed

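RNA of 3 libraries was measured by sequencing of polyadenylated transcripts with a SMARTer kit, per the labels. Each library has 1 deposited table of raw counts, with no normalization by the authors. Reads were aligned to GRCh38 with STAR 2.6.1c, per the submitters' processing notes, and counted on GENCODE version 32 exons with featureCounts 1.6.0, per the file headers. The command set no option for strand, so reads of both strands were added; by the program's defaults, reads with several alignments or over several genes were dropped.

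Symbols were matched for 60340 of 60609 genes. The test across all genes used edgeR 4.0.16 in R 4.3.3 (TMM, filterByExpr, robust quasi-likelihood, 15708 genes). DESeq2 1.42.0 and limma 3.58.1 were alternatives, and the edgeR script was tested on simulated data. Single libraries were compared on the log2 CPM scale (prior count 2) over the 11634 genes that averaged at least 5 CPM. Ratio intervals are conditional exact binomial ones at 95%, and level intervals are exact Poisson ones. No molecular identifiers are named, so these intervals and the limits of a 0 hold for counting error alone; the p-values reflect the spread of these libraries, which may be technical. The members and lists were chosen with earlier results of these data known. All members are named; of every other list up to 4 genes with the highest mean TPM are named, and genes at 0 or others named beyond that were taken after their values were seen. Protein sequences were not used here. Some genes of the lists are not reported here by name; list counts and medians include them.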

Additional observations from a re-analysis of the deposited data

How the results depend on the processing

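No member passed the test under any alternative: with DESeq2, limma-voom, RLE factors, library totals, no filter on low counts or a minimum of 5 CPM, adjusted p lay between 0.916 and 1.00. Over all genes 4 passed in the edgeR fit, 2 with limma-voom and 58 without a filter on low counts. Without one hairpin, the log2 folds ranged from -0.92 to 0.15 for CHRNA3 (-0.30 with both), from -0.16 to 0.47 for CHRNB2 (0.19 with both) and from -2.28 to 0.084 for CHRNA9 (-0.68 with both), so each changed direction: CHRNA3 without sh490, CHRNB2 and CHRNA9 without sh1362. For each of the reversed values the counting interval of the ratio to shGFP spanned 1, so that hairpin was near shGFP. With 1 hairpin left these folds are values with no test, and a count of genes past the test could not be had. With a minimum of 1 CPM, 1130 genes were at least 2-fold apart for sh490 against shGFP, 2219 for sh1362 against shGFP and 1599 between the hairpins, against 327, 1080 and 686. The counts of members at least 2-fold apart were the same under RLE factors, library totals, prior counts of 0.5 and 5, a minimum of 1 CPM and without mitochondrial genes. All 105 alternative single-library folds of members stayed within their counting intervals. On exon bases that no other gene shares, CHRNE moved from 1.03 to 2.42 TPM. No paired analysis was possible because the labels give no replicate numbers and there is 1 control library. Depth limits CHRNB4 and CHRNE, with 2 to 8 counts a library, whose counting intervals span 1 in every pair of libraries.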
